A study of Mus musculus with 81 samples.

Results

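Thymic lymphomas of untreated p53-/- mice were compared with the normal thymus of p53+/+ mice. The lymphomas were all those labelled thymic lymphoma, p53-/- and no treatment, which gave 10 mice and 23 of the 81 libraries of the series. The normal side held all 8 thymuses labelled normal and p53+/+, with 1 library each. The biopsies of a mouse were summed, so that 18 of the 40 mice entered the comparison, each as 1 sample. RNA abundance was measured by sequencing, and values below are CPM, which divide the counts of a gene by the library total, scaled between mice with TMM factors. Where 3 values follow each other they are the lowest, the median and the highest mouse of a group.

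Both sides carried the same engineered alleles: a Plk4 transgene at Col1a1, the rtTA transactivator at Rosa and centrin-GFP at Rosa, on a C57BL/6 x 129S4Sv/Jae background. Plk4 in this design follows doxycycline, which neither side received. The remaining lymphomas of the series came from p53-/- and p53+/- mice that had 2 weeks of doxycycline from 30 days of age. They entered the same fit and took part in its low-count filter, its sex term and its estimate of the spread. The labels give no age for the untreated mice, so tumour, p53 genotype and any difference of age cannot be told apart. Of the lymphomas 9 of 10 came from mice labelled male, against 4 of 8 normal thymuses, and sex was a term of the fit. Each lymphoma came from a different mouse, and p-values measure the spread between these mice.

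The normal thymus is an organ in which T cells are made. Precursors rearrange their receptor genes in the cortex, pass through a stage that carries both CD4 and CD8, and are selected on peptides presented by epithelial and dendritic cells before they leave through the medulla. Mice without p53 die mostly of T-cell lymphomas that start in this organ, and such tumours are known for lesions in Notch1, D-type cyclins and Cdk6. A dividing lymphoma cell must copy its DNA, build ribosomes and make nucleotides, and the gene families for these tasks are the main subject here. In bulk tissue fewer cells of a type and less RNA per cell cannot be told apart.

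Library totals ran from 10014686 to 24418119 counts in the lymphomas and from 5009244 to 19717077 counts in the normal thymuses. A few mice stood apart before any test. Lymphoma 881 held B-lineage markers in place of T-cell markers, with Pax5 at 898 CPM but Cd3e at 1.76 CPM, where the other 9 lymphomas had Cd3e between 168 and 430.1 CPM. Normal thymus 387 had Cd3e at 63.8 CPM and Pax5 at 187 CPM, beside at least 221 and at most 11.9 CPM in the other 7, and the highest fat and plasma cell levels. In lymphoma 643 a set of 4 ribosomal loci took 12.15% of the counts, against at most 0.358% in any other library of the comparison. Counts of genes are therefore also given without lymphomas 881 and 643 and normal thymus 387, called the 3 atypical mice below.

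In the comparison 17843 genes were tested with the quasi-likelihood test of edgeR and Benjamini-Hochberg adjustment, at a threshold of 0.05. Of these 7270 (40.7%) passed, 4139 (23.2%) higher and 3131 (17.5%) lower in lymphoma. In 872 genes (4.89%) every lymphoma lay above every normal thymus, and in 823 (4.61%) every lymphoma lay below. Without the 3 atypical mice 17952 genes were tested, and 20.6% were higher and 16.8% lower. With only the 2 groups compared in the fit, 5429 of 16466 genes passed. The median log2 fold change over all genes tested was 0.08. Of the calls 56.9% were higher, against 46.6% without TMM factors (which shifted the median log2 fold change by -0.13) and 44.7% by limma voom. These shares are the background for each gene family below. Named genes follow a rule of family leaders and largest changes, except Krt5, Pax5, Mcm5, Mcm6, Pola1, Pcna, Ccnb2, Top2a, Cdk4, Dnmt3a, Mcl1, Plxnd1, Gli1, Gar1, Lgr5 and the neighbours of Ccnd2 and Bcat1, which were chosen outside the rule after their values were seen. The lists and their leaders were themselves chosen with earlier results of these data known.

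**Figure D1:**
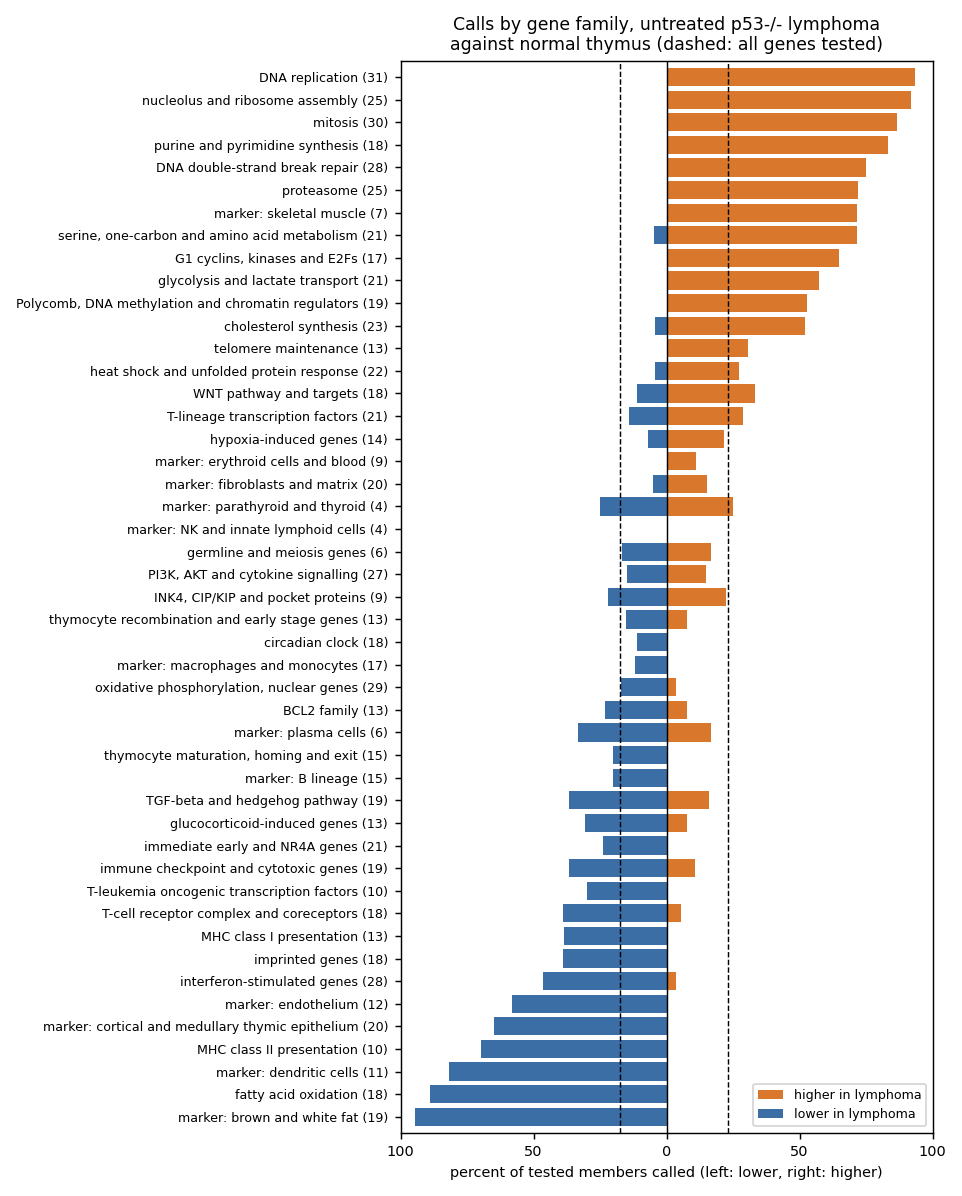
Percent of the tested members of each gene family called higher (right) or lower (left) in untreated p53-/- lymphoma than in normal thymus, with the number of members tested beside each name. The dashed lines mark 23.2% higher and 17.5% lower over all 17843 genes, and DNA replication (29 of 31 higher) and brown and white fat (18 of 19 lower) are among the families farthest from them.

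The genes of the normal thymic epithelium were among those with the largest falls. Among 20 markers of cortical and medullary epithelium tested, 13 fell and 0 rose, with a median log2 fold change of -2.47. Without the 3 atypical mice 15 of 20 fell. Prss16, a serine protease of cortical epithelium (GRCm38 chromosome 13, start 22002173, end 22009742), had lowest, median and highest levels of 0.225, 0.743 and 4.65 CPM in the lymphomas and of 44.5, 632 and 957 CPM in the normal thymuses (log2 fold change -8.74, SE 0.68, adjusted p = 9.82e-12). Psmb11, the proteasome subunit found only in that epithelium, lay at 0, 0.0685 and 0.579 CPM against 5.92, 56.5 and 154 CPM (log2 fold change -8.40, SE 0.73, adjusted p = 1.06e-10). Both genes separated the groups without overlap, even though normal thymus 387 held the lowest normal level of each.

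Tbata, a further gene of thymic epithelium, stood at 0, 2.68 and 17.1 CPM in lymphoma and 37.9, 377 and 591 CPM in normal thymus (log2 fold change -6.76, SE 0.95, adjusted p = 7.08e-07), again without overlap. Foxn1, the transcription factor that defines thymic epithelium, was at 0, 0.749 and 5.67 CPM against 1.62, 16.8 and 22.5 CPM, below every normal thymus in 7 of 10 lymphomas (log2 fold change -3.88, SE 1.0, adjusted p = 0.00205). Aire, which drives display of tissue antigens in the medulla, did not pass (0.136, 6.10 and 21.3 CPM against 1.12, 12.5 and 37 CPM, adjusted p = 0.152). The levels were unequal among the tumours. Krt5, a keratin of medullary and basal epithelium, was 221 CPM in lymphoma 881, 177 CPM in lymphoma 202 and 108 CPM in lymphoma 120, within the range of 85.7 to 366 CPM in the normal thymuses other than 387, but at most 33.8 CPM in the other 7 lymphomas. Biopsies of 1 tumour also differed widely. In single libraries without TMM factors Krt5 ran from 1.71 to 238 CPM in lymphoma 202, from 12.3 to 631 CPM in lymphoma 881 and from 1.06 to 98.8 CPM in lymphoma 325, whose highest biopsy lay within that normal range.

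Genes of antigen-presenting cells fell alongside the epithelium. Of 11 dendritic cell markers 9 fell and 0 rose, with a median log2 fold change of -2.11, and 9 fell without the 3 atypical mice. Zbtb46, a transcription factor of conventional dendritic cells, was at 0.527, 1.33 and 3.08 CPM against 5.24, 5.92 and 18 CPM (log2 fold change -2.27, SE 0.38, adjusted p = 9.89e-06), and all lymphomas lay below all normal thymuses. Ccl22, a chemokine of activated dendritic cells, was at 0, 4.0 and 26.3 CPM against 6.11, 43.4 and 79.9 CPM (log2 fold change -2.67, SE 0.80, adjusted p = 0.0076, or -3.47 without lymphoma 98, its highest tumour). Macrophage markers as a family showed no such fall, with 2 of 17 lower, close to the 17.5% of all genes, and Csf1r, the receptor that maintains macrophages, stood at 28.3, 47.7 and 72 CPM against 30.2, 51 and 154 CPM (adjusted p = 0.595).

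The class II presentation genes, which epithelium, dendritic cells and B cells share, fell in 7 of 10 tested members. H2-Ab1, a class II beta chain, was at 36.3, 136 and 656 CPM against 398, 803 and 1196 CPM (log2 fold change -2.37, SE 0.48, adjusted p = 0.000175). Cd74, the invariant chain that guides class II molecules, was at 21.8, 273 and 1626 CPM against 779.7, 1517 and 2716 CPM (log2 fold change -2.27, SE 0.59, adjusted p = 0.00229). In 9 of 10 lymphomas both lay below every normal thymus, and the exception was lymphoma 881 with its B-lineage markers, at 1626 CPM of Cd74 (log2 fold change of Cd74 -2.90 without it). Class II members share reads between near-identical genes, so the split of counts among them is uncertain.

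Fat markers were lower in the tumours than in the normal tissue. Of 19 brown and white fat markers 18 fell, with a median log2 fold change of -5.71 and 18 of 19 lower without the 3 atypical mice. Their summed level was 434, 602 and 985 CPM (lowest, median, highest) in lymphoma and 2071, 6511 and 49170 CPM in normal thymus. Ucp1, the uncoupling protein that defines brown fat (GRCm38 chromosome 8, start 83290352, end 83298452), lay at 0.068, 0.202 and 0.564 CPM against 149, 467 and 880.1 CPM (log2 fold change -10.25, SE 1.02, adjusted p = 1.54e-09). Adipoq, the hormone adiponectin of fat cells, lay at 0.136, 2.03 and 8.2 CPM against 47.7, 138 and 1395 CPM (log2 fold change -6.43, SE 0.84, adjusted p = 1.82e-07, or -5.79 without normal thymus 387). No lymphoma reached the lowest normal thymus in either gene.

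Other non-lymphoid markers moved less uniformly. Endothelial markers fell in 7 of 12 members, among them the receptor Kdr at 1.97, 5.62 and 18.6 CPM against 8.21, 15 and 127 CPM (log2 fold change -1.95, SE 0.51, adjusted p = 0.00218, or -1.24 without normal thymus 387), although Pecam1 did not pass (log2 fold change -0.53, adjusted p = 0.21). Of 20 fibroblast and matrix markers 3 rose and 1 fell, against 5 and 1 without the 3 atypical mice. Col1a1, a fibrillar collagen, lay at 23.6, 102 and 223 CPM against 10.1, 19.7 and 332 CPM (log2 fold change 1.93, SE 0.68, adjusted p = 0.0208), and no lymphoma lay above the highest normal thymus, which was mouse 387 (log2 fold change 2.82 without it). The Plk4 transgene sits at Col1a1 in every mouse of both groups. Decorin (Dcn), a matrix proteoglycan, was lower, at 10.1, 31.5 and 127 CPM against 86.2, 149 and 1433 CPM (log2 fold change -2.26, SE 0.48, adjusted p = 0.000267, or -1.43 without normal thymus 387). Of 6 plasma cell markers tested 1 rose and 2 fell. Jchain, made by plasma cells, was at 0.762, 4.75 and 25.4 CPM against 107, 333 and 1380 CPM and below every normal thymus in all 10 lymphomas (log2 fold change -5.67, SE 0.90, adjusted p = 5.40e-06). Sdc1 (CD138), a proteoglycan of plasma cells and epithelium, rose, at 15.1, 85.7 and 284 CPM against 12.2, 31 and 44.2 CPM, and was above every normal thymus in 6 lymphomas (log2 fold change 1.88, SE 0.43, adjusted p = 0.000704). Skeletal muscle markers were called higher in 5 of 7 members by edgeR but in 0 by limma voom. Their family mean was highest in lymphoma 562, 7.44 log2 units above the normal median, with lymphoma 120 next at 1.21. In lymphoma 562 the muscle creatine kinase Ckm stood at 261 CPM against at most 4.69 CPM in the other 9 lymphomas. A recount of the family without lymphoma 562 is not given.

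**Figure D2:**
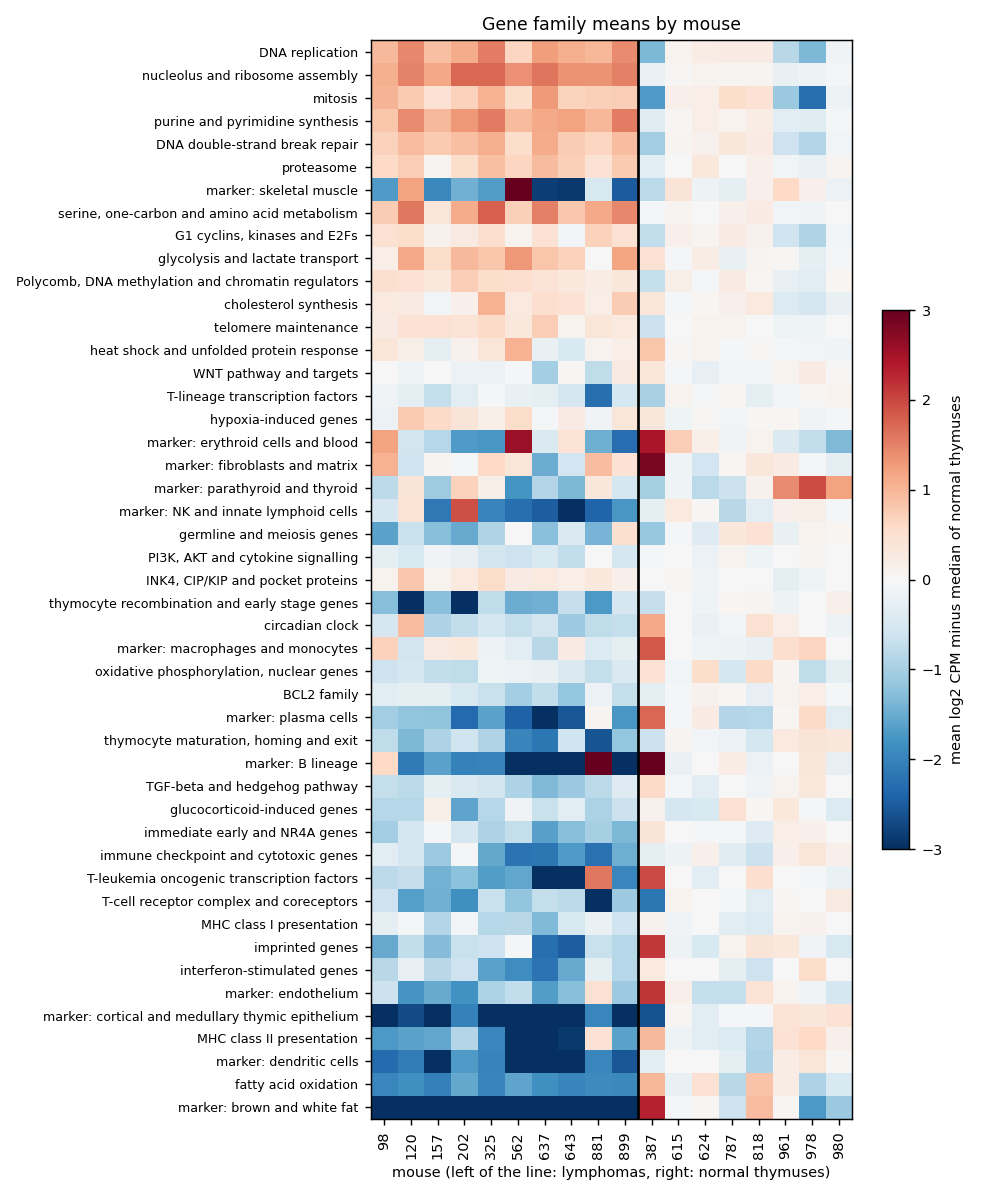
Mean over the tested members of each gene family of log2 CPM in a mouse minus the median of the 8 normal thymuses, for the 10 lymphomas (left) and the 8 normal thymuses (right), with the colour scale limited to 3 in either direction. The epithelial, dendritic cell and fat families are below the normal median in every lymphoma, and the nucleolar and replication families are above it.

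DNA replication genes rose almost as a block. Of 31 members 29 were higher and 0 lower, against 23.2% higher over all genes, with a median log2 fold change of 1.41. In 17 of the 31 every lymphoma lay above every normal thymus, and 28 rose without the 3 atypical mice. Mcm6, a subunit of the replicative helicase (GRCm38 chromosome 1, start 128331590, end 128359664), was at 283, 525 and 849.9 CPM in lymphoma and 54.2, 121 and 183 CPM in normal thymus (log2 fold change 2.19, SE 0.26, adjusted p = 2.47e-08). Mcm2 and Mcm5, further subunits of the same ring, were at 206, 354 and 459 CPM against 42.8, 129 and 158 CPM (log2 fold change 1.65, SE 0.21, adjusted p = 1.25e-07) and at 266, 312 and 519 CPM against 43.9, 133 and 148 CPM (log2 fold change 1.67, SE 0.21, adjusted p = 8.44e-08). All 10 lymphomas lay above all 8 normal thymuses in these 3 genes.

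Orc1, the largest subunit of the origin recognition complex, stood at 14.9, 28.6 and 58.7 CPM against 2.06, 6.44 and 8.22 CPM (log2 fold change 2.44, SE 0.25, adjusted p = 1.92e-09), without overlap. Among polymerases, the leading-strand enzyme Pole had the largest rise of the family, at 77.7, 176 and 253 CPM against 9.77, 32.8 and 53.6 CPM (log2 fold change 2.48, SE 0.30, adjusted p = 5.43e-08), while the primase-coupled Pola1 was at 33.8, 83.7 and 118 CPM against 10.6, 32.6 and 53.5 CPM (log2 fold change 1.41, SE 0.31, adjusted p = 0.000384). Pcna, the sliding clamp, rose by less and with overlap, at 325, 473 and 617 CPM against 95.3, 263 and 335 CPM (log2 fold change 1.05, SE 0.23, adjusted p = 0.000458).

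The stretch before the start of these genes was read from RefSeq promoter windows of build GRCm38.p6, searching the 250 bases upstream of the annotated start on both strands. An E2F motif was counted where the letters TTTCCCGC, TTTGGCGC, TTTCGCGC or TTTGCCGC occurred. Of the 24 replication genes with a window, 8 (33.3%) held one, against 3.56% of the 11796 tested genes with a window and 1.86% of all 32851 windows. The share was 4 of 11 (36.4%) among the G1 genes, 5 of 22 (22.7%) among the break repair genes and 3 of 20 (15%) among the nucleolar genes. The 200 bases nearest the start are shown for 3 of these genes to make the arrangement visible, with the matched letters in capitals, written 5′ to 3′ on the strand of the gene. They do not overlap an annotated exon.
Mcm6 (chr1:128359706-128359905, strand -): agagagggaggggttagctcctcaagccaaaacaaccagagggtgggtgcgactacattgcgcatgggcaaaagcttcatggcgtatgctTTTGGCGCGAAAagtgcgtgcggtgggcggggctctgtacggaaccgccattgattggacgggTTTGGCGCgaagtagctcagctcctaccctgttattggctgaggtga
Mcm5 (chr8:75109309-75109508, strand +): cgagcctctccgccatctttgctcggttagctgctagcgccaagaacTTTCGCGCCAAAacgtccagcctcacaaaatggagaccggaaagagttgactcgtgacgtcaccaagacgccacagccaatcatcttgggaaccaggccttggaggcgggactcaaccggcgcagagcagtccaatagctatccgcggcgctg
Pola1 (chrX:93632156-93632355, strand -): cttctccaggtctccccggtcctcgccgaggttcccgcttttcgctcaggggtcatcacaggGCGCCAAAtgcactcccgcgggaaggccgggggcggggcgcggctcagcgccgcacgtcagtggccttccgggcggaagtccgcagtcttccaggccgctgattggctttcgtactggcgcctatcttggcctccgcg
Mcm6 carries 3 matches in this stretch, Mcm5 carries 2 and Pola1 carries 1. A match is a description of the letters and not a measured binding site.

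Mitotic genes rose as well. Of 30 members 26 were higher and 0 lower, with a median log2 fold change of 0.99, and 23 of 30 rose without the 3 atypical mice. By limma voom all 30 rose, and without TMM factors 21. Every lymphoma lay above every normal thymus in only 1 member, Espl1, the protease separase that splits sister chromatids (90.2, 131 and 157 CPM against 7.85, 41.2 and 62.9 CPM, log2 fold change 1.81, SE 0.26, adjusted p = 9.30e-07). Cdc20, which activates the anaphase-promoting complex, was at 96.7, 164 and 311 CPM against 15.3, 83.6 and 106 CPM (log2 fold change 1.5, SE 0.30, adjusted p = 0.000112), and 9 of 10 lymphomas exceeded the highest normal thymus.

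Mki67, the most used proliferation marker, did not pass the test of edgeR, although it passed by limma voom. It lay at 359, 805 and 907 CPM in lymphoma and 110.2, 511 and 1020 CPM in normal thymus (log2 fold change 0.40, SE 0.26, adjusted p = 0.228), and no lymphoma exceeded the highest normal thymus. The normal thymuses themselves were spread. Their mitotic family mean lay -2.25, -1.71 and -1.12 log2 units from the normal median in mice 978, 387 and 961, and between -0.14 and 0.53 in the other 5, whereas the lymphomas lay between 0.43 and 1.27. The lowest lymphoma was thus within the range of the normal thymuses. For replication the lowest lymphoma, at 0.65, lay above the highest normal thymus, at 0.24.

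Promoter windows of the mitotic genes were searched for other letters. At least 2 copies of CCAAT occurred in 13 of 27 mitotic genes with a window (48.1%), against 14.3% of the tested genes, and the CHR element TTTGAA in 9 (33.3%) against 13.4%. Of the replication genes 8 of 24 (33.3%) held at least 2 CCAAT and 4 (16.7%) the CHR letters, and of the G1 genes 4 of 11 (36.4%) and 3 (27.3%). The E2F letters were in 1 of the 27 mitotic genes (3.7%). Shown are 2 mitotic genes that rose and Mki67, which did not pass by edgeR, with CCAAT, its reverse complement and the CHR letters of either strand in capitals, as 200 bases before the start on the strand of the gene.
Ccnb2 (chr9:70421555-70421754, strand -): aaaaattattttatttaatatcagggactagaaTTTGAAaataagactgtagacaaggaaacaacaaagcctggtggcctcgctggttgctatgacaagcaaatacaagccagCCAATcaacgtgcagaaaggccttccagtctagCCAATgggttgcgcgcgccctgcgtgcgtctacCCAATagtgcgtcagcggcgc
Top2a (chr11:99024190-99024389, strand -): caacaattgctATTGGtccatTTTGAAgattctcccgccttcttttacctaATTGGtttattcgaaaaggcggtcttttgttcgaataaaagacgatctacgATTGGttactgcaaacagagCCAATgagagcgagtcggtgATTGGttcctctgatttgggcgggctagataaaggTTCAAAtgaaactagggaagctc
Mki67 (chr7:135716380-135716579, strand -): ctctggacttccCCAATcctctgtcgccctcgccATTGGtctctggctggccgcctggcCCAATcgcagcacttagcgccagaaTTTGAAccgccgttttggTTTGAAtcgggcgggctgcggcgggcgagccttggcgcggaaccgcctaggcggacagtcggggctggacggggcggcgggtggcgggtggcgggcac
Ccnb2, a mitotic cyclin, stood at 101, 146 and 207 CPM against 15.2, 94.5 and 135 CPM (log2 fold change 0.80, SE 0.32, adjusted p = 0.0408) and Top2a, which untangles DNA, at 532, 872 and 1100 CPM against 82.5, 501 and 677 CPM (log2 fold change 1.02, SE 0.28, adjusted p = 0.0035). The call of Ccnb2 ended when any of lymphomas 98, 120, 202 and 637 or normal thymuses 961 and 978 was left out (without 978, log2 fold change 0.60, adjusted p = 0.0913). Both kinds of letters are in all 3 windows shown.

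Genes that start the cycle rose in part. Among 17 G1 cyclins, kinases and E2Fs, 11 rose and 0 fell, with a median log2 fold change of 0.83. The counts were 10 and 1 without the 3 atypical mice, 8 and 1 without TMM factors, and 11 and 1 by limma voom. E2f3, an activating E2F, was at 24.4, 46.3 and 64.2 CPM against 10.9, 15.7 and 21.2 CPM (log2 fold change 1.56, SE 0.23, adjusted p = 2.05e-06), and E2f1 at 20.8, 44.8 and 92 CPM against 7.01, 17.7 and 24.9 CPM (log2 fold change 1.48, SE 0.25, adjusted p = 1.13e-05). Cdk4, a partner of the D-type cyclins, was at 241, 287 and 430.4 CPM against 112, 189 and 218 CPM (log2 fold change 0.83, SE 0.21, adjusted p = 0.00175). The groups did not overlap for E2f3 and Cdk4, and lymphoma 881 fell within the normal range for E2f1. Cdk6, the other partner, exceeded every normal thymus in 9 of 10 lymphomas and reached 455 CPM in lymphoma 899, where the next highest had 240.1 CPM (log2 fold change 1.33, SE 0.36, adjusted p = 0.00375).

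Inhibitors of the cycle moved in both directions. Of 9 INK4, CIP/KIP and pocket protein genes 2 rose and 2 fell, close to the 23.2% higher and 17.5% lower over all genes. Cdkn2a, which encodes p16 and p19ARF, had the largest rise among the called genes of average log2 CPM 2 or more, at 24.3, 192 and 367 CPM against 0.791, 1.44 and 4.30 CPM (log2 fold change 6.89, SE 0.53, adjusted p = 9.68e-12), and lymphoma 98 was its lowest tumour. Its neighbour Cdkn2b, which encodes p15, did not pass (0.901, 2.52 and 7.98 CPM against 2.03, 3.21 and 6.23 CPM, log2 fold change -0.07, SE 0.43, adjusted p = 0.911). Cdkn1b, the p27 inhibitor, fell to 32.1, 51 and 115 CPM against 77.2, 146 and 167 CPM (log2 fold change -1.21, SE 0.23, adjusted p = 5.35e-05). Of the pocket proteins, Rbl1 (p107) rose (58.6, 93.8 and 114 CPM against 28.7, 54.7 and 71.6 CPM, log2 fold change 0.87, SE 0.18, adjusted p = 0.000263) and Rb1 had a log2 fold change of -0.35 (adjusted p = 0.246). Gene-level counts cannot separate the p16 and p19ARF transcripts.

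Repair of DNA double-strand breaks was a family in which 21 of 28 members rose and 0 fell, with a median log2 fold change of 1.13. Without the 3 atypical mice 20 rose and 1 fell. Exo1, a nuclease of end resection, was at 31.7, 52.9 and 130.4 CPM against 3.13, 14.4 and 21.2 CPM (log2 fold change 2.18, SE 0.29, adjusted p = 2.83e-07). Fanca, of the Fanconi pathway for crosslinks, was at 28.6, 49.1 and 69.4 CPM against 5.05, 12.2 and 15.7 CPM (log2 fold change 2.03, SE 0.23, adjusted p = 1.01e-08). Brca1, which promotes repair by homologous recombination, was at 56.1, 68.1 and 115 CPM against 8.93, 27 and 45.8 CPM (log2 fold change 1.41, SE 0.26, adjusted p = 5.53e-05). All lymphomas were above all normal thymuses in these 3 genes. Atm, the kinase that signals breaks, was at 36.9, 57.6 and 191 CPM against 20.5, 25.9 and 41.1 CPM (log2 fold change 1.33, SE 0.28, adjusted p = 0.000191), and only normal thymus 387 reached into the range of the tumours.

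Ribosome assembly separated the groups almost gene by gene. Of 25 nucleolar and ribosome assembly genes 23 rose and 0 fell, with a median log2 fold change of 1.54, and in 22 every lymphoma lay above every normal thymus, against 4.89% of all genes. Leaving out the 3 atypical mice, 23 rose. Gnl3 (nucleostemin), a nucleolar GTPase, was at 112, 139 and 334 CPM against 25, 35.3 and 42.9 CPM (log2 fold change 2.26, SE 0.21, adjusted p = 3.60e-10). Nop58, a core protein of box C/D ribonucleoproteins (GRCm38 chromosome 1, start 59684971, end 59719044), was at 212, 298 and 470.3 CPM against 42.8, 68.4 and 82.5 CPM (log2 fold change 2.22, SE 0.18, adjusted p = 2.09e-11).

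Nucleolin (Ncl), an abundant protein of the nucleolus, was at 1074, 1549 and 2358 CPM against 427, 643 and 772 CPM (log2 fold change 1.28, SE 0.16, adjusted p = 6.94e-08). No lymphoma reached down to the normal range in Gnl3, Nop58 or Ncl. Proteins shared with telomerase rose too: Dkc1, the pseudouridine synthase dyskerin, lay at 134, 167 and 252 CPM against 34.5, 56.4 and 71.5 CPM (log2 fold change 1.74, SE 0.20, adjusted p = 1.47e-08), and Nhp2 at 54, 113 and 165 CPM against 24.8, 34.9 and 37.9 CPM (log2 fold change 1.72, SE 0.23, adjusted p = 2.12e-07). Tert itself, the telomerase reverse transcriptase, did not pass (3.39, 9.75 and 39.9 CPM against 4.36, 7.66 and 11.7 CPM, log2 fold change 0.70, SE 0.43, adjusted p = 0.198). Of the 13 telomere genes 4 rose and 0 fell, against 4 and 1 without the 3 atypical mice. With all mice, 3 of those that rose were Dkc1, Nhp2 and Gar1, proteins of the box H/ACA particle that also modifies ribosomal RNA.

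**Figure D3:**
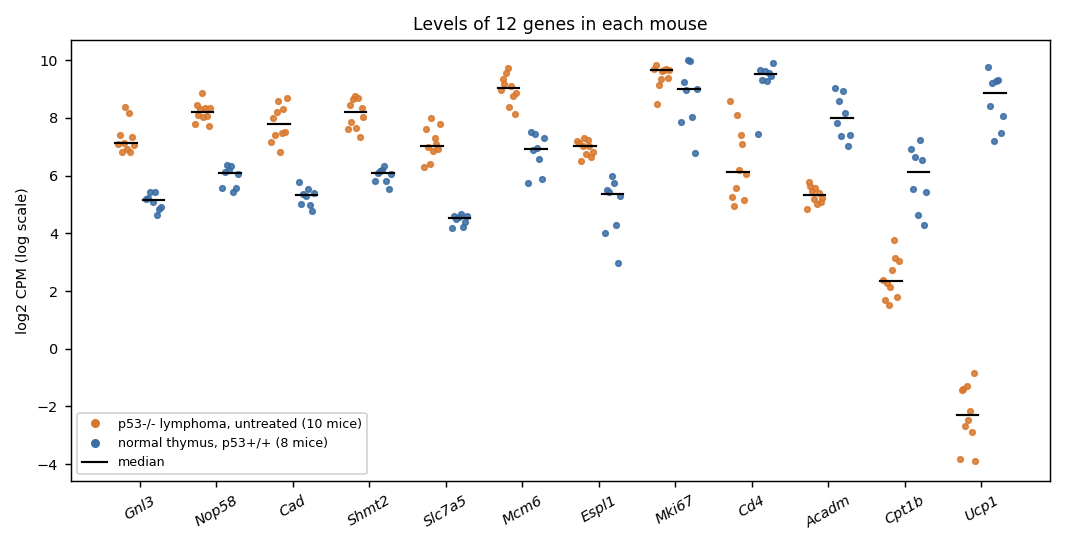
Level of 12 genes in each mouse on a log2 CPM axis, with the 10 untreated p53-/- lymphomas in orange and the 8 normal thymuses in blue, and a bar at the median of each group. Gnl3, Cad, Shmt2 and Mcm6 separate the groups, Mki67 does not, and Cpt1b and Ucp1 separate them in the other direction.

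Nucleotide synthesis rose through both pathways. Of 18 purine and pyrimidine genes 15 rose and 0 fell, with a median log2 fold change of 1.44 and 12 members without overlap. The counts were 15 and 1 without the 3 atypical mice. Cad, the enzyme with the first 3 activities of pyrimidine synthesis, was at 112, 220.4 and 410.1 CPM against 27.4, 40.3 and 54.5 CPM (log2 fold change 2.83, SE 0.30, adjusted p = 3.99e-09). Ppat, which commits carbon to purines, was at 72, 108 and 214 CPM against 21.8, 30.5 and 37.5 CPM (log2 fold change 2.13, SE 0.24, adjusted p = 1.06e-08). In both genes the lowest lymphoma exceeded the highest normal thymus. The E-box letters CACGTG were in the windows of 4 of 16 of these genes (25%), of 1 of 20 nucleolar genes (5%) and of 9.37% of tested genes. They were also in 3 of 11 G1 genes (27.3%), 3 of 24 replication genes (12.5%) and 3 of 27 mitotic genes (11.1%).

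The supply of one-carbon units and amino acids rose in 15 of 21 members tested and fell in 1. Phgdh, the first enzyme of serine synthesis, was at 139, 283 and 486 CPM against 71.3, 104 and 129 CPM (log2 fold change 1.5, SE 0.25, adjusted p = 1.33e-05). Shmt2, the mitochondrial enzyme that takes a carbon from serine, was at 162, 294 and 436 CPM against 46.5, 67.7 and 81.4 CPM (log2 fold change 2.29, SE 0.23, adjusted p = 2.04e-09). Slc7a5, a transporter of large neutral amino acids, was at 78, 132 and 254 CPM against 18, 23.1 and 25.6 CPM (log2 fold change 2.92, SE 0.30, adjusted p = 2.33e-09). Lymphomas and normal thymuses did not overlap in these 3 genes. Mthfd2, which passes the carbon on in mitochondria, was at 20.2, 46.9 and 123 CPM against 11.6, 19.1 and 31 CPM (log2 fold change 1.73, SE 0.41, adjusted p = 0.000823), and lymphoma 157 alone lay within the normal range.

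The branched-chain aminotransferases moved in opposite directions. Bcat1, the cytosolic enzyme (GRCm38 chromosome 6, start 144993835, end 145076184), was at 4.29, 57 and 952 CPM against 1.47, 3.32 and 4.25 CPM (log2 fold change 5.79, SE 0.74, adjusted p = 1.24e-07). Bcat2, the mitochondrial enzyme, was at 27.8, 44.2 and 70.7 CPM against 71, 111 and 144 CPM (log2 fold change -1.13, SE 0.23, adjusted p = 0.000168). All 10 lymphomas lay above all normal thymuses for the first and below for the second, but lymphoma 157 exceeded the highest normal level of Bcat1 by little, with 4.29 CPM against 4.25 CPM, and lymphoma 120 held 952 CPM. Without lymphoma 120 the log2 fold change of Bcat1 was 4.50.

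Glycolysis rose in 12 of 21 members, and 0 fell. Ldha, which makes lactate, was at 687, 1128 and 1621 CPM against 349.8, 481 and 645 CPM (log2 fold change 1.16, SE 0.21, adjusted p = 3.78e-05), without overlap. Slc2a1, the glucose transporter, was at 20.6, 33.4 and 117 CPM against 18.3, 22 and 25.6 CPM (log2 fold change 0.82, SE 0.27, adjusted p = 0.0152), and the call rested on lymphoma 120 (without it, log2 fold change 0.54, adjusted p = 0.0531). Slc16a3, the lactate exporter, had the largest rise of the family, at 6.13, 43.7 and 126 CPM against 1.34, 3.82 and 6.30 CPM (log2 fold change 3.78, SE 0.58, adjusted p = 2.76e-06). Hk2, the inducible hexokinase, did not pass (log2 fold change -0.64, adjusted p = 0.238). Among 23 cholesterol synthesis genes 12 rose and 1 fell, among them the squalene epoxidase Sqle (22.1, 46.3 and 104 CPM against 17.5, 19.7 and 29.4 CPM, log2 fold change 1.25, SE 0.24, adjusted p = 8.19e-05). Proteasome subunits rose in 18 of 25 and fell in 0, by small amounts, with a median log2 fold change of 0.62. Psmd1, of the regulatory particle, shifted from 85.2, 103 and 123 CPM in normal thymus to 160.1, 198 and 312 CPM in lymphoma (log2 fold change 1.05, SE 0.13, adjusted p = 7.11e-08).

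Fatty acid oxidation went the other way. Of 18 members 16 fell and 0 rose, against 17.5% lower over all genes, with a median log2 fold change of -1.47. Acadm, the medium-chain dehydrogenase, was at 28.9, 39.8 and 55.5 CPM against 130, 256 and 522 CPM (log2 fold change -2.91, SE 0.22, adjusted p = 7.95e-12). No lymphoma lay within the normal range. The muscle and brown fat isoform Cpt1b was at 2.86, 5.04 and 13.7 CPM against 19.7, 70.4 and 152 CPM (log2 fold change -3.62, SE 0.41, adjusted p = 1.36e-08). The broadly used isoform Cpt1a did not pass (42.4, 109 and 247 CPM against 75.9, 123 and 133 CPM, log2 fold change 0.19, SE 0.27, adjusted p = 0.602). In 8 of the 18 members all lymphomas were below all normal thymuses, against 4.61% of all genes.

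The lymphomas also had low fat markers, as above, and among normal thymuses the mean of the family was highest in mice 387 and 818, which also had the highest fat means. The part of fat in the fall of oxidation genes was not tested. Without the 3 atypical mice, which include 387, 16 of 18 fell. Nuclear genes of oxidative phosphorylation moved little, with 1 higher and 5 lower of 29 (0 and 8 without TMM factors). Mitochondrially encoded genes took 0.77, 1.96 and 6.22% of the counts of a lymphoma library and 3.85, 5.45 and 13.1% of those of a normal thymus, and the part of this difference in the results was not tested. Of the lower ones Cox7a1 and Cox8b are isoforms of muscle and brown fat, at 0.676, 1.41 and 5.20 CPM against 12.8, 45.6 and 78.5 CPM (log2 fold change -4.48, SE 0.53, adjusted p = 3.07e-08) and at 0, 0.182 and 7.48 CPM against 21.5, 91.5 and 196 CPM (log2 fold change -6.58, SE 1.03, adjusted p = 4.08e-06, or -8.35 without lymphoma 562).

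Cd3e, of the T-cell receptor complex, was present in 9 of 10 tumours, with coreceptors and stage genes unequal. Of 18 receptor complex and coreceptor genes 7 fell and 1 rose, and 9 fell without the 3 atypical mice. Cd4 was at 30.9, 69.5 and 382 CPM against 173, 729 and 958 CPM (log2 fold change -2.35, SE 0.49, adjusted p = 0.00023), below every normal thymus in 8 of 10 lymphomas. Cd8b1, the partner chain of Cd8a, was at 0.912, 224 and 614 CPM against 128, 926 and 1092 CPM (log2 fold change -1.87, SE 0.72, adjusted p = 0.0349), and Cd8a itself passed by limma voom but not by edgeR (log2 fold change -1.24, SE 0.63, adjusted p = 0.114 by edgeR). The receptor chain Cd3e did not pass (1.76, 262 and 430.1 CPM against 63.8, 302 and 399.6 CPM, log2 fold change -0.14, SE 0.45, adjusted p = 0.825). Zap70, the kinase that starts receptor signals, rose, and lay above every normal thymus in 9 of 10 lymphomas (119, 179.8 and 334 CPM against 26.1, 118 and 129.6 CPM, log2 fold change 0.87, SE 0.23, adjusted p = 0.00231).

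The genes that rearrange receptor loci differed widely between tumours. Rag1 was at 1923 CPM in lymphoma 98 and 2032 CPM in lymphoma 637, within the normal range of 276 to 2166 CPM. It was 26.6 CPM in lymphoma 157, 40.8 CPM in lymphoma 881, 1.55 CPM in lymphoma 120 and 0.316 CPM in lymphoma 202, and between 406 and 534 CPM in the remaining 4. The mean change of Rag1 did not pass by edgeR, although it did by limma voom (log2 fold change -1.42, SE 0.78, adjusted p = 0.146 by edgeR), whereas Rag2 (log2 fold change -2.23, SE 0.84, adjusted p = 0.0313) and the nucleotide-adding enzyme Dntt (log2 fold change -2.01, SE 0.81, adjusted p = 0.043) passed narrowly. Of 13 recombination and early stage genes 1 rose and 2 fell, no more than the shares over all genes, and 1 and 0 without the 3 atypical mice. Rag2 kept its call whichever mouse was left out but lost it in 5 other settings, among them only the 2 groups compared and single-biopsy tumours only. The call of Dntt ended without any 1 of 10 mice (lymphomas 157, 562, 643 and 899, normal thymuses 615, 624, 787, 818, 961 and 980), and that of Cd8b1 without lymphoma 157 or 899 or normal thymus 624 (without 643, log2 fold change of Dntt -1.84, adjusted p = 0.0739; without 157, of Cd8b1 -1.75, adjusted p = 0.0513). Lymphomas 120 and 202 had Dntt at 1.04 and 0.368 CPM with Cd3e at 394 and 339 CPM, so that this gene of the receptor complex was expressed there nearly without the recombination genes.

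**Figure D4:**
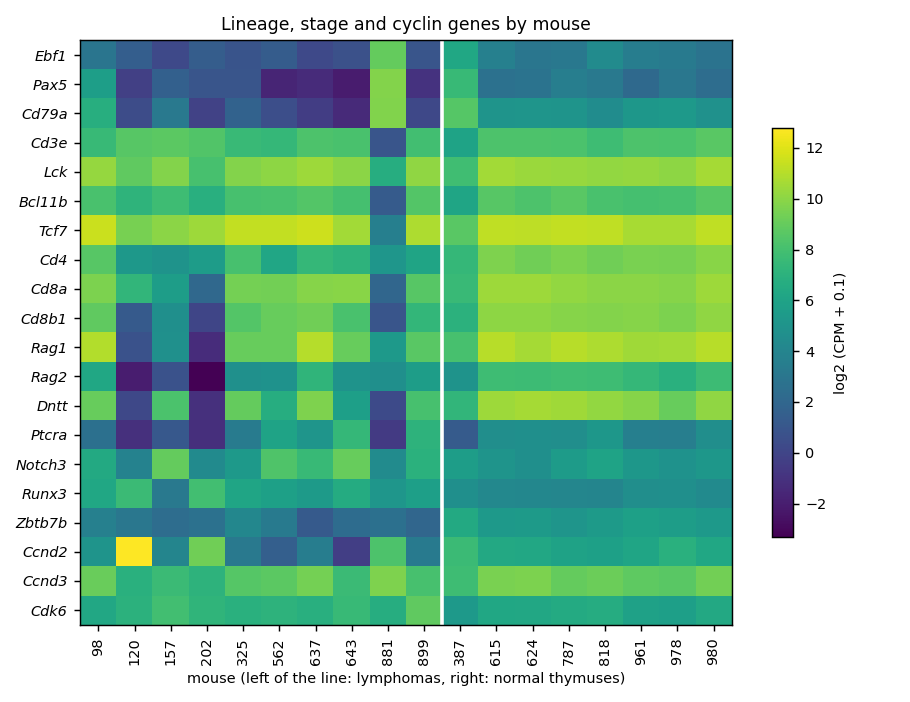
Level (log2 of CPM plus 0.1, colour) of 20 lineage, stage and cyclin genes in each of the 10 lymphomas and 8 normal thymuses. Lymphoma 881 shows Pax5 and Cd79a without Cd3e, lymphomas 120 and 202 show Cd3e with Ccnd2 and without Rag1, Rag2, Dntt and Cd8b1, and the normal thymuses other than 387 look alike.

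Among genes linked to Notch signalling, Notch3, Ptcra and Dtx1 were unequal among the tumours too. These are single genes, and no list of Notch targets was made. Notch3, a receptor and Notch target of early thymocytes, was above every normal thymus in 6 lymphomas and below in 3, at 14.1, 105 and 531 CPM against 25.5, 36.5 and 65 CPM (log2 fold change 2.05, SE 0.63, adjusted p = 0.00847). The 3 below were lymphomas 120, 202 and 881. Ptcra, the pre-receptor alpha chain, was at most 0.581 CPM in these 3 tumours and reached 168 and 134 CPM in lymphomas 643 and 899, against 2.37 to 36.9 CPM in normal thymus (log2 fold change 0.81, SE 0.95, adjusted p = 0.518). Dtx1, a ubiquitin ligase and Notch target, was 1.78 and 1.35 CPM in lymphomas 120 and 202 and 2510 and 1377 CPM in lymphomas 643 and 899. In lymphoma 881 it was at 29.2 CPM, above the highest normal thymus (28.2 CPM), so this tumour was not low in every target.

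Among 21 T-lineage transcription factors 6 rose and 3 fell, against 3 and 4 without TMM factors and 4 and 5 by limma voom. These counts were not far from the shares over all genes, 23.2% higher and 17.5% lower. Runx3, which directs the cytotoxic fate, was above every normal thymus in 9 lymphomas and below in lymphoma 157 (8.88, 64.7 and 244 CPM against 15.9, 19.4 and 26.4 CPM, log2 fold change 2.23, SE 0.47, adjusted p = 0.000265). Zbtb7b (ThPOK), which directs the helper fate, was below in all 10 (2.25, 6.08 and 17.1 CPM against 33.5, 43.2 and 89.3 CPM, log2 fold change -2.38, SE 0.50, adjusted p = 0.000241). Ikzf2 (Helios) rose (1.11, 77.6 and 717 CPM against 18.4, 43 and 51.7 CPM, log2 fold change 1.93, SE 0.65, adjusted p = 0.0162) and Satb1, an organiser of thymocyte chromatin, fell (60.6, 473 and 821 CPM against 239, 1431 and 1974 CPM, log2 fold change -1.52, SE 0.39, adjusted p = 0.00189). Lymphoma 881 held the lowest level of both, and the call of Ikzf2 rested on lymphoma 202 (without it, log2 fold change 1.19, adjusted p = 0.0868). Tcf7 and Bcl11b, which commit cells to the T lineage, did not pass (log2 fold changes -0.19 and -0.42, adjusted p = 0.749 and 0.447). Of 15 markers of maturation and exit 3 fell, close to the share lower over all genes (6 without the 3 atypical mice, and 6 by limma voom): the activation marker Cd69 (1.65, 4.83 and 25 CPM against 22.1, 50.8 and 73 CPM, log2 fold change -2.55, SE 0.56, adjusted p = 0.000419), Ccr7 (log2 fold change -1.95, SE 0.45, adjusted p = 0.000737) and Plxnd1 (log2 fold change -1.69, SE 0.40, adjusted p = 0.00102). Of the oncogenic transcription factors of T-cell leukemia, 10 of 16 were abundant enough to test, 0 rose and 3 fell, among them Meis1 (0, 1.07 and 9.48 CPM against 9.05, 12.8 and 21.3 CPM, log2 fold change -2.84, SE 0.58, adjusted p = 0.00016, or -3.52 without lymphoma 120). Lyl1 lay at 82 CPM in lymphoma 881 and at most 9.54 CPM in the other 9 tumours.

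**Figure D5:**
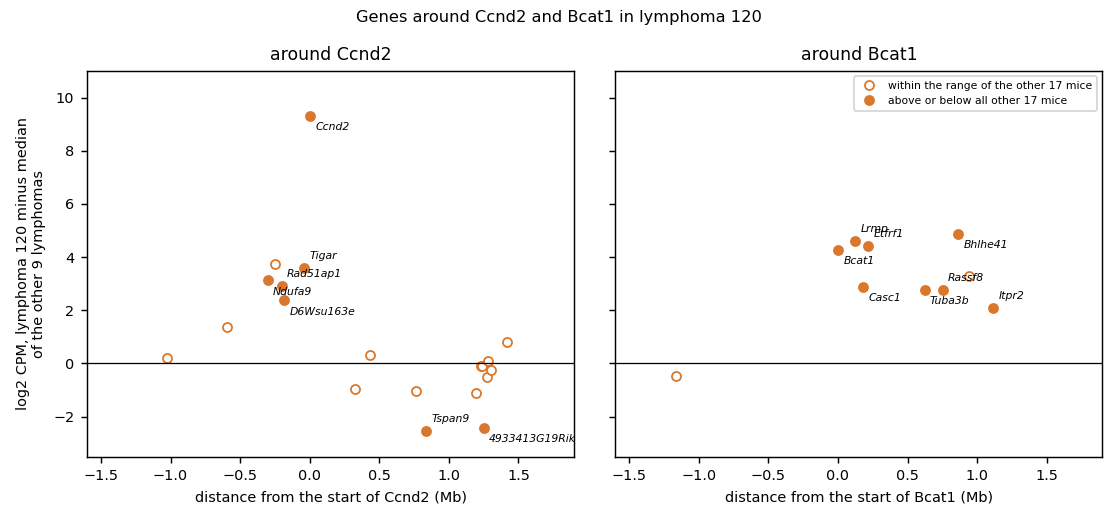
Log2 CPM in lymphoma 120 minus the median of the other 9 lymphomas for protein-coding genes within 1.5 Mb of the start of Ccnd2 (left) and of Bcat1 (right), by distance in Mb. Filled points are genes above or below all 17 other mice. Every gene from Ndufa9 to Ccnd2 on the left is above them except Dyrk4, every gene plotted from Bcat1 to Itpr2 on the right except Sspn, and 2 genes on the left, Tspan9 and 4933413G19Rik, are below.

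The D-type cyclins differed among tumours. Ccnd2 was 7047 CPM in lymphoma 120, 630 CPM in lymphoma 202 and 305 CPM in lymphoma 881, which all exceeded the normal range of 57.7 to 201 CPM, and at most 32.8 CPM in the other 7, all below that range. The group difference did not pass (log2 fold change 2.77, SE 1.29, adjusted p = 0.0836), and without lymphoma 120 the log2 fold change was 0.01. It passed without the sex covariate, with single-biopsy tumours only, by DESeq2 and without the 3 atypical mice. Ccnd3, the D-type cyclin of cortical thymocytes, was lowest in lymphomas 120 and 202 (121 and 137 CPM) and highest in lymphoma 881 (807 CPM). The 3 tumours with Ccnd2 above the normal range were the same ones with Notch3 below it.

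In lymphoma 120 the level of Ccnd2 was part of a stretch of chromosome 6 whose genes stood out in that tumour. These neighbours were chosen after their values were seen, and they carry no test. Ndufa9 was at 775 CPM against 71 to 136 CPM in the other 9 lymphomas, the recombination factor Rad51ap1 at 301 CPM against 18.2 to 48.5 CPM, and Tigar at 61.8 CPM against 1.92 to 15.1 CPM. Parp11, the next gene tested on the other side, was within the range of the other mice at 13 CPM. A second stretch of the chromosome held Bcat1, where 8 of 10 genes plotted within 1.5 Mb exceeded all other mice, against 5 of 20 around Ccnd2. Sox5, the plotted gene before Bcat1, was at 0.74 CPM in lymphoma 120, so the values do not show where this stretch began. Lrmp was at 4227 CPM in lymphoma 120 against 153 to 1257 CPM in the other lymphomas. The same tumour had the long noncoding RNA Pvt1 at 1011 CPM, where the other 9 had 3.20 to 78.3 CPM. DNA copy number was not measured in the values used here.

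Extreme levels in a single tumour touched other families as well. Pdgfrb, a growth factor receptor of mesenchymal cells, was 833 CPM in lymphoma 157, where the hedgehog effector Gli1 was 53.9 CPM, against medians of 27.4 and 1.06 CPM over the 10 lymphomas. The meiotic cohesin Stag3 was 64.6 CPM in lymphoma 899 and at most 3.09 CPM elsewhere in the lymphomas. Lgr5, a Wnt target too low elsewhere to be tested, was 87.7 CPM in lymphoma 881 and at most 0.213 CPM in the rest. The imprinted RNA H19 was 140.3 CPM in lymphoma 562, the tumour with muscle genes, and at most 3.31 CPM in the others.

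Where several regions of a tumour were biopsied, some stage genes varied little between the biopsies of a tumour and others several-fold. Values in this paragraph are CPM of single libraries without TMM factors. The 4 biopsies of lymphoma 202 had Ccnd2 between 606.9 and 625 CPM and Cd3e between 326 and 337 CPM. The 4 biopsies of lymphoma 881 had Pax5 between 549 and 1227 CPM and Cd3e between 0.834 and 3.68 CPM, so the B-lineage pattern was in every region. The 5 biopsies of lymphoma 899 had Ptcra between 124 and 155 CPM. Cd4 ran from 49.6 to 118 CPM in the same 5. In lymphoma 325 Ptcra ran from 3.80 to 19.9 CPM over 4 biopsies, a wider range relative to its level, and Rag1 from 377.6 to 751.9 CPM.

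Few survival genes passed. In the BCL2 family of 13 tested, 3 fell and 1 rose, against 5 and 0 by limma voom and 4 and 0 without TMM factors. The survival factors Bcl2 (2.96, 14.2 and 69.9 CPM against 40.4, 51.6 and 113 CPM, log2 fold change -1.58, SE 0.46, adjusted p = 0.00539), Bcl2l1 (15.4, 30.4 and 104 CPM against 70.6, 167 and 215 CPM, log2 fold change -1.81, SE 0.40, adjusted p = 0.000408) and Mcl1 (156, 223 and 367 CPM against 294, 372 and 448 CPM, log2 fold change -0.64, SE 0.14, adjusted p = 0.000603) were the ones that fell. Bid, a promoter of cell death, rose (31.4, 55 and 110.1 CPM against 22.2, 34.5 and 44.1 CPM, log2 fold change 0.78, SE 0.31, adjusted p = 0.0389), a call that ended when any of lymphomas 98, 562, 637 and 899 or normal thymuses 818, 961 and 978 was left out (without 978, log2 fold change 0.70, adjusted p = 0.0871). Bcl2l1 is the survival factor of cells at the stage with both coreceptors, and Bcl2 of mature T cells. Fas, the death receptor, was below every normal thymus in all lymphomas (2.49, 7.11 and 24.2 CPM against 28.2, 45.3 and 60.4 CPM, log2 fold change -2.30, SE 0.41, adjusted p = 3.19e-05).

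Of 21 immediate early genes, which respond to receptor signals within minutes, 5 fell and 0 rose, not far from the share lower over all genes (10 fell by limma voom). Nr4a3, induced by receptor signals, was at 0.678, 1.83 and 6.22 CPM against 9.32, 12.8 and 17.6 CPM (log2 fold change -2.39, SE 0.46, adjusted p = 8.74e-05) without overlap, and Egr2 was at 0.949, 2.65 and 22.4 CPM against 7.79, 18.1 and 21.4 CPM (log2 fold change -1.93, SE 0.52, adjusted p = 0.003, or -2.67 without lymphoma 202, its highest tumour). Egr1 and Nr4a1 did not pass (log2 fold changes -0.98 and -0.75, adjusted p = 0.0695 and 0.106), although Egr1 passed without lymphoma 157 (log2 fold change -1.38, adjusted p = 0.00695) and Nr4a1 without lymphoma 643 (log2 fold change -1.02, adjusted p = 0.0178). Of 27 PI3K, AKT and cytokine genes 4 rose and 4 fell, no more than the shares over all genes, against 3 and 7 by limma voom. Akt1 rose (152, 252 and 476 CPM against 121, 151 and 171 CPM, log2 fold change 0.89, SE 0.21, adjusted p = 0.00081), above every normal thymus in 8 lymphomas. Socs1 and Cish, inhibitors induced by cytokines, fell (log2 fold change -1.93, SE 0.40, adjusted p = 0.000231 for Socs1 and log2 fold change -2.23, SE 0.67, adjusted p = 0.00724 for Cish, or -3.12 without lymphoma 881).

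Interferon-stimulated genes were lower in 13 and higher in 1 of 28, with a median log2 fold change of -0.93. With the 3 atypical mice left out 13 fell. Ifit1, which binds foreign RNA, was at 3.14, 8.70 and 16.9 CPM against 22.1, 31.4 and 51.2 CPM (log2 fold change -2.0, SE 0.50, adjusted p = 0.00157), and Oasl2 at 1.49, 14.8 and 37.1 CPM against 44.5, 77 and 111 CPM (log2 fold change -2.27, SE 0.53, adjusted p = 0.000741), with all lymphomas below all normal thymuses. The member that rose was Cgas, the sensor of cytosolic DNA, which rose (1.26, 22.7 and 57.7 CPM against 2.69, 4.67 and 7.32 CPM, log2 fold change 1.94, SE 0.55, adjusted p = 0.00453). It was above every normal thymus in 8 lymphomas and below in lymphomas 157 and 881. Class I presentation fell in 5 of 13 members: B2m, its light chain, was at 272, 749 and 1395 CPM against 1017, 1199 and 2831 CPM (log2 fold change -0.86, SE 0.28, adjusted p = 0.0115), a call that ended without normal thymus 387 (log2 fold change -0.60, adjusted p = 0.0607), and H2-K1 at 91.4, 284 and 822 CPM against 663, 988 and 1846 CPM (log2 fold change -1.65, SE 0.39, adjusted p = 0.000842). Epithelial and dendritic cell markers were lower in the same tumours, as given above, and their part in these falls was not tested.

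Enzymes of DNA methylation rose among the chromatin regulators. Of 19 Polycomb, DNA methylation and chromatin genes 10 rose and 0 fell. Dnmt1, the maintenance methyltransferase, was at 322, 544 and 1163 CPM against 91, 203 and 285 CPM (log2 fold change 1.73, SE 0.23, adjusted p = 3.81e-07) and the new-site methyltransferase Dnmt3b at 13.2, 20.2 and 29.9 CPM against 2.68, 6.71 and 10.3 CPM (log2 fold change 1.47, SE 0.33, adjusted p = 0.000573), both without overlap. Hells, a remodeller that assists methylation, was at 86.4, 115 and 201 CPM against 16.5, 42.2 and 61.9 CPM (log2 fold change 1.61, SE 0.28, adjusted p = 1.78e-05), also without overlap, and Dnmt3a rose by less (log2 fold change 0.89, SE 0.24, adjusted p = 0.00356). Ezh2, the catalytic subunit of a Polycomb complex, did not pass (122, 220.1 and 283 CPM against 39.9, 156 and 188 CPM, log2 fold change 0.53, SE 0.23, adjusted p = 0.0586), although it passed in 8 of the 18 fits that left out 1 mouse (without 643, log2 fold change 0.64, adjusted p = 0.0228). Imprinted genes fell in 7 of 18 and rose in 0, against 17.5% lower over all genes, but without the 3 atypical mice 5 fell and 1 rose. Peg3 was among those that fell (0.225, 0.716 and 4.53 CPM against 2.58, 7.31 and 54.2 CPM, log2 fold change -3.34, SE 0.83, adjusted p = 0.0015, or -4.05 without lymphoma 562). Normal thymus 387 held the highest family mean, 2.12 log2 units above the normal median. Of 20 germline genes 6 could be tested, 1 rose and 1 fell.

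Clock and hypoxia families had few calls, and the glucocorticoid and WNT families about as many as all genes. Dbp, an output gene of the circadian clock, was at 4.97, 6.83 and 16.9 CPM against 24.5, 37.8 and 138 CPM (log2 fold change -2.62, SE 0.32, adjusted p = 5.31e-08), whereas the core clock gene Arntl did not pass (log2 fold change -0.11, adjusted p = 0.761), and 2 of 18 clock genes fell (7 by limma voom). Sampling times are not in the labels. Car12, a carbonic anhydrase induced by hypoxia, was at 4.26, 19.3 and 58.6 CPM against 0.249, 1.85 and 2.96 CPM (log2 fold change 3.54, SE 0.37, adjusted p = 2.76e-09), and Egln3, an oxygen sensor, at 4.73, 121 and 229 CPM against 19.96, 25.7 and 34.1 CPM (log2 fold change 2.21, SE 0.40, adjusted p = 4.11e-05), but Vegfa did not pass (log2 fold change -0.26, adjusted p = 0.678), and 3 of 14 hypoxia genes rose, close to the share over all genes. The mitophagy receptor Bnip3, another gene of this list, fell, at 13.1, 27.4 and 60.4 CPM against 42.5, 79 and 252 CPM, and was below every normal thymus in 8 lymphomas (log2 fold change -1.78, SE 0.36, adjusted p = 0.000169). Of 13 glucocorticoid-induced genes 4 fell and 1 rose, with Tsc22d3 lower (14.6, 109.6 and 342 CPM against 166, 243 and 399 CPM, log2 fold change -1.12, SE 0.34, adjusted p = 0.00875, a call lost with only the 2 groups compared and with single-biopsy tumours only) and Ddit4 higher (151, 333 and 666 CPM against 92.1, 134 and 274 CPM, log2 fold change 0.97, SE 0.35, adjusted p = 0.0241), although the call of Ddit4 ended without normal thymus 818 or 978 (without 978, log2 fold change 0.89, adjusted p = 0.0566). In the WNT family 6 of 18 rose, among them the feedback inhibitor Axin2 (0.94, 44.7 and 175 CPM against 17.4, 20.02 and 31.7 CPM, log2 fold change 1.47, SE 0.52, adjusted p = 0.0214) and the receptor Fzd5 (5.72, 15.5 and 35.7 CPM against 5.11, 6.59 and 10.3 CPM, log2 fold change 1.48, SE 0.36, adjusted p = 0.00142), and the inhibitor Sfrp1 fell (0.3, 4.14 and 8.71 CPM against 15, 29.8 and 43.8 CPM, log2 fold change -2.51, SE 0.60, adjusted p = 0.00109). Axin2 was lowest in lymphoma 881, and its call rested on lymphoma 157 (without it, log2 fold change 1.1, adjusted p = 0.0665).

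The remaining families moved in both directions or hardly at all. Among 19 TGF-beta and hedgehog genes 3 rose and 7 fell (4 without the 3 atypical mice), with the hedgehog factor Gli3 at 0.225, 0.675 and 2.66 CPM against 3.32, 5.90 and 10.1 CPM, below all normal thymuses in every lymphoma (log2 fold change -2.50, SE 0.45, adjusted p = 3.77e-05), and the receptor Ptch1 at 26.1, 68 and 93.9 CPM against 29.3, 36.5 and 41.3 CPM (log2 fold change 0.85, SE 0.25, adjusted p = 0.00706). Among 19 checkpoint and cytotoxic genes 2 rose and 7 fell (0 and 10 by limma voom), with Gzma, a granule protease, at 0.478, 58.5 and 629.5 CPM against 7.36, 42.6 and 62.8 CPM (log2 fold change 2.14, SE 0.73, adjusted p = 0.0186) and Cd200, an inhibitory ligand, at 2.48, 5.37 and 11.1 CPM against 19.97, 24.6 and 70 CPM (log2 fold change -2.30, SE 0.35, adjusted p = 2.24e-06). Gzma was highest in lymphomas 98 and 325 and its call ended without either (without 98, log2 fold change 1.65, adjusted p = 0.0785), and Cd200 was below the normal range in all 10. Of 22 heat shock and unfolded protein genes 6 rose, among them the mitochondrial chaperonin Hspd1 (393, 576 and 947 CPM against 149.7, 225 and 360.5 CPM, log2 fold change 1.26, SE 0.23, adjusted p = 3.22e-05), and 1 fell, Xbp1, a factor of secretory cells (30.6, 65 and 126 CPM against 111, 136 and 368 CPM, log2 fold change -1.13, SE 0.30, adjusted p = 0.00246). B-lineage markers fell in 3 of 15 (8 by limma voom), natural killer cell markers in 0 of 4, and of 9 erythroid markers 1 rose.

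Outside the families, the 10 largest rises included a secreted and an RNA-binding protein. Spp1 (osteopontin), the secreted one, was at 6.31, 30.4 and 117 CPM against 1.48, 2.7 and 4.95 CPM (log2 fold change 4.04, SE 0.64, adjusted p = 4.35e-06), above every normal thymus in 10 of 10 lymphomas. Igf2bp3, an RNA-binding protein of embryonic tissue, was at 0.814, 38.3 and 93.5 CPM against 0.623, 1.18 and 2.92 CPM (log2 fold change 4.99, SE 0.99, adjusted p = 0.000119). It was at least 36.2 CPM in 6 lymphomas and at most 3.08 CPM in the other 4. AY036118 and Lars2 were also among the 10 (log2 fold changes 4.72 and 4.69, adjusted p = 0.00134 and 0.000601). Without lymphoma 643 the log2 fold change of AY036118 was 0.51, adjusted p = 0.366, and that of Lars2 1.40, adjusted p = 0.0272. In lymphoma 643 they stood at 131100 and 67160 CPM against at most 1129 and 1147 CPM in any other lymphoma. The 10 largest falls were Ucp1, Prss16, Cidea, Thrsp, Gpd1, Cyp2e1, Plin1, Tbata, Cidec and Ces1d, and all 10 lymphomas lay below all normal thymuses in each of them. Of these, Prss16 and Tbata belong to thymic epithelium.

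The 10 protein-coding genes that varied most among the lymphomas were Rag1, Arsi, Dntt, H2-T3, Blk, Ccnd2, Fcgbp, Rag2, Cd8b1 and Cnnm1. They were chosen by their spread, and the values in this paragraph are a description. Cnnm1, a divalent metal transport protein, was 10.7 to 49.5 CPM in 7 lymphomas and at most 0.158 CPM in lymphomas 120, 202 and 881, while the normal thymuses had at most 1.27 CPM. Blk, a kinase of B cells and immature T cells, was highest in lymphomas 881 (166 CPM) and 120 (146 CPM), against at most 9.25 CPM in the normal thymuses other than 387. H2-T3, a class I-like gene of a multigene family whose counts are uncertain, was 160.5 and 159.9 CPM in lymphomas 637 and 643 and 0.14, 0.148 and 0.0854 CPM in lymphomas 202, 120 and 881. Lymphomas 120, 202 and 881 thus stood together in Notch3, Ccnd2 and Cnnm1, read from the values and not tested, whereas Rag1 was low in lymphoma 157 as well.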

How the data were processed

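RNA was measured in 81 libraries of 40 mice. The deposited table holds RSEM expected counts per gene made by the authors, 51826 genes by 81 columns, of which 14.25% of the values are not whole. The submitters' processing notes name CASAVA 1.8, fastp, STAR 2.7.2b, RSEM 1.1.17 and build mm10. Whether counting used strand is not given in the sources used here, so antisense and overlapping genes, such as genes within another gene, cannot be separated. Expected counts were rounded to whole numbers and summed over the biopsies of a mouse. Gene names and positions come from an annotation of GRCm38 (mm10), in which 99.63% of the identifiers were found.

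A single model (R 4.3.3, edgeR 4.0.16, quasi-likelihood, robust, TMM factors, default low-count filter) covered the 39 mice of 4 groups, with labelled sex as a covariate. The contrast was untreated p53-/- lymphoma minus p53+/+ normal thymus, with Benjamini-Hochberg adjustment and a threshold of 0.05. The standard error of a fold change was approximated from the F statistic. The script was tested on simulated data. Alternatives used limma 3.58.1, DESeq2 1.42.0 and other groups, filters and scalings.

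The 47 gene lists, of which 12 hold cell type markers, and the members named were chosen with earlier results of these data known. Named were the 10 largest rises and falls with an average log2 CPM of at least 2, predicted and receptor genes left out. Within each list, fixed leading members were named with up to 2 rises and 2 falls of average log2 CPM of at least 1, as were the 10 most variable genes. Libraries differed in depth, and a CPM near 0 rests on few counts. Labelled sex matched the data in all 18 mice compared. No pair of libraries was identical. A p53+/- normal thymus, the only sample of its group, entered an alternative only. A few genes are not reported here.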

Additional observations from a re-analysis of the deposited data

Results flagged for a closer look

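A mouse far from the others of its group was looked for with Dixon's gap ratio, over the 10 lymphomas and over the 8 normal thymuses, in the mean difference of 47 gene families and in the log2 CPM of 150 genes. Chance marks about 1 in 20 groups, a rate the counts below cannot be read against, since the families were chosen with earlier results known and some of the genes for an extreme value or a wide spread. The ratio passed its critical value in 19 of 94 family tests and 52 of 300 gene tests. Of these, 13 and 34 were normal thymus 387.

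Normal thymus 387 lay far below the other normal thymuses in T-cell receptor complex and coreceptors (-2.17), thymocyte recombination and early stage genes (-0.69), T-lineage transcription factors (-0.96), telomere maintenance (-0.64) and cortical and medullary thymic epithelium (-2.61), each a mean difference in log2 units from the normal median, and far above them in T-leukemia oncogenic transcription factors (1.97), heat shock and unfolded protein response (0.83), imprinted genes (2.12), hypoxia-induced genes (0.33), B lineage (3.86), macrophages and monocytes (1.84), endothelium (2.14) and fibroblasts and matrix (2.82). It was far below the other 7 in Arntl (17.3 CPM), Bcl11b (70.4 CPM), Bcl2l1 (70.6 CPM), Car12 (0.249 CPM), Cd3e (63.8 CPM), Cd4 (173 CPM), Cd8a (192 CPM), Cd8b1 (128 CPM), Cdkn1b (77.2 CPM), Dnmt3b (2.68 CPM), Dntt (156 CPM), Fas (28.2 CPM), Foxn1 (1.62 CPM), Gzma (7.36 CPM), H2-T3 (0.0623 CPM), Krt5 (8.48 CPM), Prss16 (44.5 CPM), Ptcra (2.37 CPM), Rag1 (276 CPM), Rag2 (30.9 CPM), Satb1 (239 CPM), Socs1 (19.7 CPM), Tbata (37.9 CPM), Tcf7 (401 CPM) and Zap70 (26.1 CPM). It was far above them in B2m (2831 CPM), Blk (51.5 CPM), Cd200 (70 CPM), Col1a1 (332 CPM), Dcn (1433 CPM), Lyl1 (22.3 CPM), Pax5 (187 CPM), Xbp1 (368 CPM) and Zbtb46 (18 CPM).

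Lymphoma 881 lay far below the other lymphomas in T-cell receptor complex and coreceptors (-5.23) and T-lineage transcription factors (-2.27) and far above in T-leukemia oncogenic transcription factors (1.58) and endothelium (0.46). Among genes it was low in Axin2 (0.94 CPM), Bcl11b (2.36 CPM), Cd3e (1.76 CPM), Egln3 (4.73 CPM), Ikzf2 (1.11 CPM) and Tcf7 (12 CPM) and high in Lgr5 (87.7 CPM). Lymphoma 562 was high in the family of skeletal muscle (7.44) and in Ckm (261 CPM), H19 (140.3 CPM) and Peg3 (4.53 CPM). Lymphoma 120 was high in the circadian clock family (0.94).

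Lymphoma 643 was high in AY036118 (131100 CPM) and Lars2 (67160 CPM). Lymphoma 157 was low in Mki67 (359 CPM). Lymphoma 157 was high in Pdgfrb (833 CPM). Lymphoma 202 was low in Tsc22d3 (14.6 CPM). Lymphoma 202 was high in Atm (191 CPM). Lymphoma 98 was low in Cdkn2a (24.3 CPM). Lymphoma 637 was low in Sfrp1 (0.30 CPM). These values are given without an explanation, and no cause was tested.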

How the results depend on the processing

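The 7270 calls (4139 higher, 3131 lower) were recounted with 1 choice changed at a time, except that the fit to male mice also left out the other lymphoma groups and that DESeq2 used its own size factors. The count fell to 4656 (2233 higher) when a log2 fold change of at least 1 was also asked, to 3695 (2075 higher, 1620 lower) with male mice of the 2 groups compared, which leaves 4 normal thymuses (5429 with both sexes of these groups), and to 4672 (2720 higher, 1952 lower) with a filter of 10 CPM in 8 libraries, which tests fewer genes. Under the remaining settings the count stayed within 1.5 times, from 5429 to 7955 without a low-count filter. Leaving out 1 mouse gave 6528 to 7446 calls, 3695 to 4671 higher and 2596 to 3324 lower, and without normal thymus 387 the share higher was 64.3%. Without the 3 atypical mice, an alternative added after seeing the data, 6716 passed, and 6195 of the original calls were among them in the same direction. Leaving out the ribosomal loci, also added, gave 7267.

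Of 135 named genes with a printed fold change, 114 were called, and none of the 114 changed sign in any alternative. All 18 fits that left out 1 mouse kept 103 of them, and 81 were called in every alternative. The 33 others lost the call in at least 1 setting, 31 of them with male mice of the 2 groups compared, which was the sole such setting for Bcl2, Ccr7, Cd74, Cdc20, Cish, Dnmt3a, Egr2, H2-K1, Kdr, Mcl1, Oasl2, Pola1, Ptch1, Rbl1, Sqle and Top2a. AY036118, Bid, Ccnb2, Ddit4, Dntt, Lars2 and Rag2 lost it without the 3 atypical mice, Col1a1 without the sex covariate, and AY036118, Axin2, Bid, Cgas, Gzma, Ikzf2, Notch3 and Slc2a1 by limma voom. Conversely Cd8a, Egr1, Ezh2, Mki67, Nr4a1 and Rag1 passed by limma voom, and Ccnd2, Egr1, Ezh2 and Nr4a1 without the sex covariate. By limma voom 5 T-leukemia factors, 3 heat shock, 2 chromatin, 2 natural killer and 2 amino acid metabolism genes fell and 0 erythroid markers rose. Genes that did not pass changed sign as follows. Ccnd2 was -1.26 and Ptcra -1.65 by limma voom, and Cd3e was 0.07 with single-biopsy tumours. Cdkn2b was 0.02 with sex taken from expression, 0.20 with male mice, 0.14 without mouse 387, 0.01 with the p53+/- thymus joined and 0.01 without the 3 atypical mice. Csf1r was 0.12 with only the 2 groups, 0.19 with male mice and 0.15 without mouse 387, and Vegfa was 0.16 with male mice and 0.25 without mouse 387. Leaving out 1 mouse at a time, Arntl ran from -0.22 to 0.03, Cdkn2b from -0.30 to 0.14, Csf1r from -0.34 to 0.15 and Vegfa from -0.61 to 0.25. The cause of these changes was not tested. No paired analysis was possible because replicate numbers are animal numbers and no mouse is in both groups.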

Other observations

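Single tumours held further genes far from the rest, listed here as values chosen after they were seen and with no test. In lymphoma 98 the proteasome ATPase gene Psmc6 stood at 670.5 CPM, against 88.4 to 428 CPM in the other 9 lymphomas. Neighbours on chromosome 14 were high in the same tumour: Ero1l, an oxidase of protein folding, at 354 CPM against 35.1 to 324 CPM, and Txndc16 at 139.9 CPM against 10.3 to 60.8 CPM. Of 14 genes tested within 1.5 Mb of Psmc6, 6 exceeded all other mice in lymphoma 98.

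Lymphoma 202 had Eomes, a transcription factor of cytotoxic lymphocytes, at 171.6 CPM and the receptor chain Klrd1 at 91.9 CPM, where the normal thymuses had at most 11.8 and 7.98 CPM. Among germline genes, 2 of which were also chosen after their values were seen, Piwil2 of the piRNA pathway was higher in lymphoma (0.854, 2.35 and 6.35 CPM against 0.185, 0.709 and 0.997 CPM as lowest, median and highest mouse, log2 fold change 2.24, adjusted p = 0.000174 by edgeR). The meiotic recombinase Dmc1 was lower (log2 fold change -3.31, adjusted p = 0.000656 by edgeR, or -3.93 without lymphoma 562), with medians of 0.075 CPM in lymphoma and 1.19 CPM in normal thymus.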
